A study of Mus musculus with 6 samples.

Results

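Pou3f2, Epha7, Basp1, Ptprz1, Plxna4, Nxph1, Unc13b, Cnr1, Necab1 and Calb1 are genes of neural progenitors, growing axons and synapses. These 10 genes, of 56953 features in the deposited count table, were chosen because they lie on stretches of chromosomes 4, 6 and 15 where the row names of that table fit the reads. Pou3f2, Epha7, Unc13b, Cnr1, Necab1 and Calb1 are on chromosome 4, Ptprz1, Plxna4 and Nxph1 on chromosome 6 and Basp1 on chromosome 15. Pou3f2 was also chosen for its rise in the mutant and its spread between mutant libraries, so its values are given as a description with no test, and the question here is whether the other 9 followed it. RNA was measured in tailbud tissue cut from mouse embryos, at embryonic day 9.5 by the labels. The names of the count columns also carry 10-5, which the labels do not explain. The wild type and the genotype Fgfr1 FCPG/FCPG were represented by 3 libraries each. FCPG is an allele of the receptor gene with point mutations in the residues where its signaling effectors dock. The comparison asks what happens to transcription in early mesoderm without canonical FGF signaling. The labels name no transgene, Cre driver or treatment in either group. The sources used here do not give strain, litter or the number of embryos per library. The p-values therefore measure the spread between these libraries, which may be technical in part.

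The labels describe the tissue as neuromesodermal progenitors with somitic and intermediate mesoderm, and name no neural tissue. Neuromesodermal progenitors are bipotent cells of the tailbud that give rise to both spinal cord and paraxial mesoderm, and FGF signaling is known to help maintain them. As neural tube forms from them, progenitors switch on neural transcription factors such as the POU factors. Receptors that guide axons and the proteins that release transmitter follow in young neurons. In bulk tissue, fewer cells of a type and less RNA per cell cannot be told apart, so every level below is a level of the tissue.

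Total counts ran from 16984568 in mutant replicate 2 to 27316475 in wild-type replicate 1, and levels are given as CPM, counts per 1000000 counts of a library after scaling. By rows named for Y-linked genes, wild-type replicate 1 and mutant replicates 2 and 3 were taken as male and the other 3 as female. These rows summed to 584, 942 and 656 CPM before scaling in the libraries taken as male, and to at most 0.598 CPM in the others. They lie off the stretches, so their names, and the sexes taken from them, are less sure. Row names were taken as fitting the reads only on the stretches. All 42 housekeeping-type genes on them reached 10 CPM, with a median of 239.8 CPM, partly a consequence of choosing stretches by such genes. Elsewhere 268 of 877 did, with a median of 0.622 CPM. With a detection minimum of 20 CPM in place of 10 CPM, the stretch of chromosome 15 with Basp1 dropped out and that of chromosome 6 ended before Plxna4, so the names of these 2 genes are the least sure. None of 11 tailbud mesoderm markers, among them T, Tbx6 and Msgn1, lay on the stretches, so the labelled tissue could not be checked against them.

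The promoters of Pou3f2, of the tested genes Epha7 and Unc13b, which turned out highest in mutant replicate 2, and of Basp1, with the smallest range between mutant libraries of the 8 tested genes, are shown to let their sequence be compared. The RefSeq promoter table, of build GRCm38.p6, held 7 of the 10 genes, all but Plxna4, Necab1 and Calb1. That build differs from mm39, the one the submitters' processing notes name. Each sequence is the 250 bases before the annotated start, 5′ to 3′ on the gene's strand, with matches to the motifs below in capitals. Epha7 has 2 starts in the table, of which 1 is shown.
Pou3f2 chr4:22488367-22488616 (minus strand): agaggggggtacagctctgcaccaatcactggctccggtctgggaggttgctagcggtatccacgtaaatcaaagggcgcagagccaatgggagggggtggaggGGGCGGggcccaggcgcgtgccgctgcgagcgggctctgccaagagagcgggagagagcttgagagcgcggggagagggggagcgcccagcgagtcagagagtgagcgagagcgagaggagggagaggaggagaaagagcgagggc
Epha7 chr4:28812881-28813130 (plus strand): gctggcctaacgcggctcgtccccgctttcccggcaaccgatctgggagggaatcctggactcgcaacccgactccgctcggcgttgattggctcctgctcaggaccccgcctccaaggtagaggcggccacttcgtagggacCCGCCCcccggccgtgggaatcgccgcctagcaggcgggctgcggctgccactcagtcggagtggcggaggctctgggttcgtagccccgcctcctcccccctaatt
Unc13b chr4:43058703-43058952 (plus strand): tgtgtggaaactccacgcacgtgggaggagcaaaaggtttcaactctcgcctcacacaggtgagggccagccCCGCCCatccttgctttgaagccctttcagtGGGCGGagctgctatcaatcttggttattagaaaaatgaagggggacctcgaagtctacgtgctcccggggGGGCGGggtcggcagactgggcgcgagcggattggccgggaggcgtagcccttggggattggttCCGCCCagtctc
Basp1 chr15:25413765-25414014 (minus strand): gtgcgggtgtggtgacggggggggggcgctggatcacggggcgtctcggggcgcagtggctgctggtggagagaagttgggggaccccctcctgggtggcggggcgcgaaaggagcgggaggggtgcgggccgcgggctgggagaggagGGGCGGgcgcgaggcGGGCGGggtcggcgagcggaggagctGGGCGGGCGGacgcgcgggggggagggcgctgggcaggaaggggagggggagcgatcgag
Motifs were searched on both strands: the octamer ATGCAAAT, bound by POU factors, the SOX core ACAATG, the TATA box TATAAA and the GC box GGGCGG. No match to the octamer, the SOX core or the TATA box was found in any of the 7 promoters. Of all 32851 promoters of this length in the table, 1.6% held the octamer, 10.7% the SOX core and 12.4% the TATA box. The GC box was found at least once in 6 of the 7, all but Cnr1, against 32.7% of all promoters. It occurred 1 time before Pou3f2 and Epha7 and 4 times before Unc13b and Basp1, where matches overlap in Basp1. The Pou3f2 promoter was 66.8% G and C, that of Epha7 69.2% and that of Basp1 78.8%, against a median of 52.4%.

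Pou3f2, also called Brn2, is a POU-domain transcription factor that drives neural progenitors toward neurons. The wild-type libraries held 11.6, 7.20 and 4.22 CPM of it. In mutant replicates 1 to 3 it stood at 49.8, 305.1 and 20.8 CPM. Every mutant library thus lay above every wild-type library, and mutant replicate 2 lay far above the others. Relative to the wild-type mean the 3 mutant libraries were 6.47-fold, 39.7-fold and 2.70-fold higher. By the sexes taken above, the male wild type stood at 11.6 CPM against 305.1 and 20.8 CPM in the male mutants. In female tissue it was 7.20 and 4.22 CPM against 49.8 CPM. These hold 1 male wild-type and 1 female mutant library, too few to compare the genotypes within a sex. The fitted log2 fold change of Pou3f2 was 4.01 ± 0.95 (SE, n = 3 per group). It was 2.19 without mutant replicate 2 and 3.46 with a term for embryo sex. The log2 range between its highest and lowest mutant library was 3.87, a range reached by 0.261% of all features tested. On the stretch just upstream of Pou3f2 lies Gm30731, a predicted non-coding RNA gene on the other strand, named here after its values were seen. It stood at 0.372, 0.0735 and 0.0534 CPM in the wild-type libraries, against 1.37, 8.38 and 0.608 CPM in mutant replicates 1 to 3, the same order as Pou3f2.

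**Figure D1:**
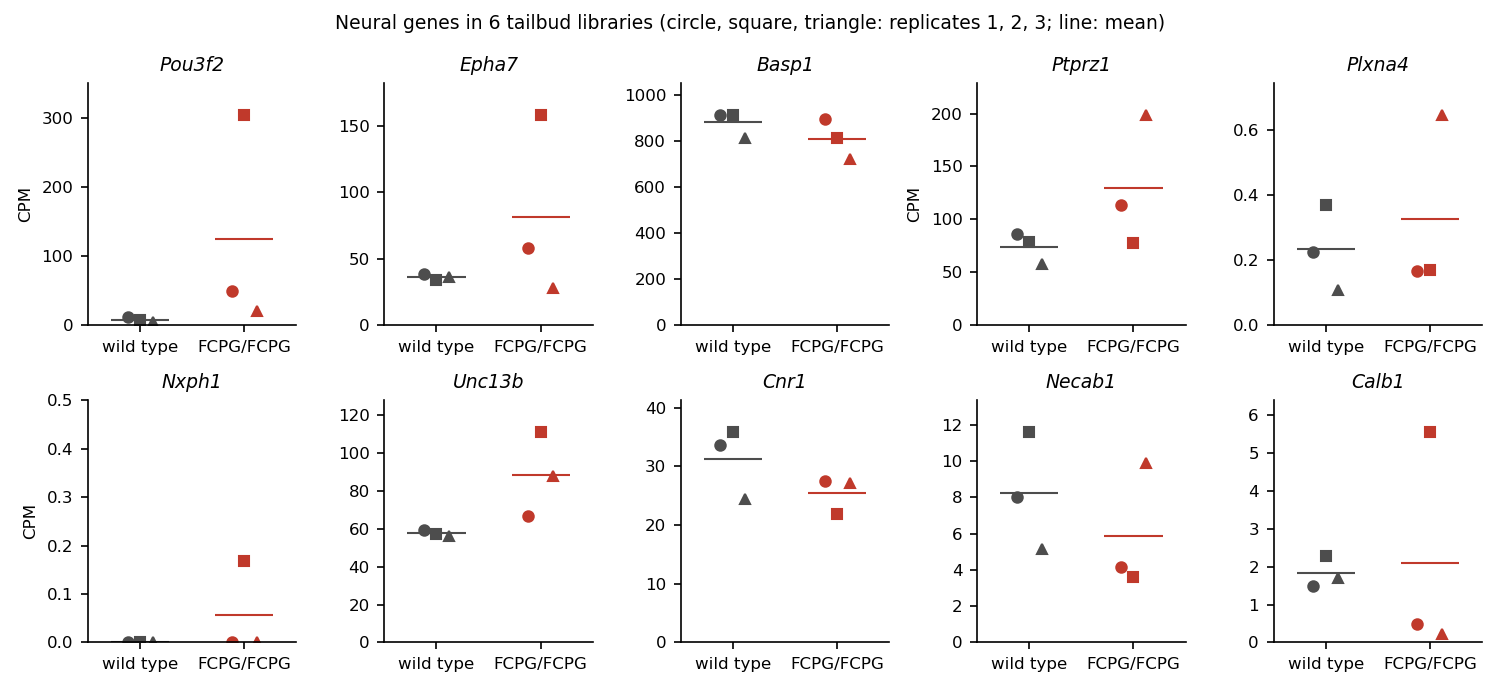
CPM of the 10 genes in each of the 6 libraries, with wild type in grey, Fgfr1 FCPG/FCPG in red, symbols for replicates 1 to 3 and a line at the group mean; each panel has its own vertical axis from 0. Pou3f2, Epha7, Unc13b and Calb1 peak in mutant replicate 2, and Ptprz1 in mutant replicate 3 at 199 CPM.

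No other tested gene of the 10 rose or fell in the mutant by more than the test allows for the spread between libraries. Nxph1 and Plxna4 had too few counts to be tested, and of the remaining 7, 0 passed at an adjusted p below 0.05 (edgeR quasi-likelihood test over all 14550 features tested). Over all features, 7.92% were called, 4.25% higher in the mutant and 3.67% lower. At an unadjusted p below 0.05, 2 of the 7 passed in edgeR, both higher in the mutant. At that threshold 1902 of all 14550 features were higher and 1826 lower, and 128 and 68 of the 555 tested on the stretches. The DESeq2 Wald test called 1 of the 7, where it called 941 features higher and 767 lower in all. Limma-voom called 0 (569 and 508 in all), and edgeR with no low-count filter 3 (1352 and 1145 in all). With a term for embryo sex 0 of the 7 passed, against 273 features higher and 264 lower in all. In the authors' deposited table Unc13b had an adjusted p below 0.05, and the lowest among the other 6 was 0.236 (Ptprz1). The median log2 fold change of the 7 was 0.13, against -0.01 over all features and 0.09 over the 555 tested features on the stretches. A p that misses the threshold does not show that these genes were equal in the 2 genotypes, and the errors below give the room that is left.

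Among the axon genes, Epha7 came nearest to the pattern of Pou3f2. It encodes an ephrin receptor that steers axons and sets borders between cell groups in the neural tube. It stood at 38.5, 33.7 and 36.1 CPM in the wild-type libraries, against 57.7, 158 and 27.9 CPM in mutant replicates 1 to 3. Mutant replicates 1 and 2 lay above all wild-type libraries and mutant replicate 3 below them, so the groups overlap. The wild-type libraries were close together, with a log2 range of 0.19, while the mutant range of 2.50 was reached by 1.34% of all features tested. The log2 fold change was 1.17 ± 0.52 (SE, edgeR adjusted p = 0.201). It rested on mutant replicate 2: without that library it was 0.25 (adjusted p = 0.598), and without mutant replicate 3 it was 1.59 and passed (edgeR adjusted p = 0.0300).

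Basp1, a membrane protein of growth cones, was by far the most abundant of the 10 genes per kilobase of exon, at 438 CPM per kilobase in wild type, where the others ran from 0 to 5.21 CPM per kilobase. It stood at 914, 911 and 815 CPM in the wild-type libraries, against 893, 810.5 and 720.0 CPM in mutant replicates 1 to 3. The groups overlap, and the highest mutant library was replicate 1, not replicate 2. Its log2 fold change was -0.12 ± 0.10 (SE, edgeR adjusted p = 0.460), the smallest error of the 8 tested genes. Plxna4, a plexin that carries semaphorin signals to the growth cone, had 2 to 10 counts in wild-type libraries and 3 to 17 in mutant libraries, at most 0.646 CPM. Its row is among the least sure in name, so this low level cannot be read as Plxna4 expression. The Basp1 row is as unsure in name, so its high level carries the same limit.

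Ptprz1, a receptor phosphatase of radial glia and other neural progenitors, spread between mutant libraries in another order. It stood at 86.4, 78.7 and 57.3 CPM in the wild-type libraries, against 114, 77.3 and 199 CPM in mutant replicates 1 to 3. Mutant replicate 2, where Pou3f2 was highest, had the lowest Ptprz1 of the mutants, within the wild-type range, and mutant replicate 3, where Pou3f2 was lowest, had the highest. The log2 fold change was 0.81 ± 0.31 (SE, edgeR adjusted p = 0.150). It was 0.38 without mutant replicate 3.

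Unc13b, which encodes Munc13-2, a priming factor for synaptic vesicles, was the only member besides Pou3f2 whose groups did not overlap. It stood at 59.4, 57.2 and 56.0 CPM in the wild-type libraries, against 66.5, 111 and 87.8 CPM in mutant replicates 1 to 3. All mutant libraries lay above all wild-type libraries, a pattern found in 15.8% of all features tested and 24.3% of those on the stretches. Its log2 fold change of 0.62 ± 0.17 (SE) did not pass in edgeR (adjusted p = 0.0619). It passed without mutant replicate 1, at 0.80 (edgeR adjusted p = 0.0256), and in the DESeq2 Wald test (adjusted p = 0.00558). In the authors' deposited table its log2 fold change was 0.63, with an adjusted p of 0.00675.

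Cnr1 and Necab1 had lower means in the mutant and were not highest in mutant replicate 2. Cnr1, the cannabinoid receptor of presynaptic terminals, stood at 33.6, 35.9 and 24.4 CPM in the wild-type libraries, against 27.6, 21.9 and 27.2 CPM in mutant replicates 1 to 3. The groups overlap, mutant replicate 2 was the lowest of the 6 libraries, and the log2 fold change was -0.29 ± 0.16 (SE, edgeR adjusted p = 0.305). Necab1, a neuronal calcium-binding protein, stood at 8.04, 11.6 and 5.13 CPM in the wild-type libraries, against 4.15, 3.60 and 9.89 CPM in mutant replicates 1 to 3. Mutant replicates 1 and 2 were the lowest and mutant replicate 3 lay within the wild-type range, with a log2 fold change of -0.49 ± 0.42 (SE, edgeR adjusted p = 0.517). An antisense gene overlaps Necab1, at no more than 3.61 CPM, and the strand setting of the counting is not given in the sources used here.

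Calb1, the calcium buffer calbindin of many neurons, had low counts, and its direction turned on mutant replicate 2. It had 40, 62 and 32 counts in wild type, which is 1.49, 2.28 and 1.71 CPM. In mutant replicates 1 to 3 it had 12, 99 and 6 counts, or 0.498, 5.57 and 0.228 CPM. Mutant replicate 2 lay above all wild-type libraries and the other 2 mutant libraries below them. The log2 fold change was 0.13 ± 0.94 (SE, edgeR adjusted p = 0.946) with all libraries and -2.32 without mutant replicate 2 (edgeR adjusted p = 0.0316). A term for embryo sex gave -0.37 and limma-voom -1.26, neither past the threshold. Nxph1, a secreted ligand of neurexins, had 0 counts in 5 libraries and 3 counts in mutant replicate 2. A count of 0 allows up to 3 counts, or 0.110 to 0.160 CPM in these libraries, so Nxph1 was not detectable at this depth outside mutant replicate 2, where 3 counts equal 0.169 CPM.

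The order of the mutant libraries in Pou3f2 was no more frequent among the other genes than on the stretches. Of the 7 tested genes besides Pou3f2, 3 were highest in mutant replicate 2 among the mutants, namely Epha7, Unc13b and Calb1. That is 42.9%, against 38.1% of all features tested and 47.2% of those on the stretches. The full order of Pou3f2, with mutant replicate 2 above 1 and 1 above 3, was found in Epha7 and Calb1, 2 of the 7, against 22.4% of all features and 29% of those on the stretches. Over all 6 libraries, Pearson's r of log2 CPM with Pou3f2 was 0.88 for Epha7 and 0.87 for Unc13b. It was 0.25 for Calb1, 0.20 for Ptprz1, -0.18 for Basp1, -0.57 for Cnr1 and -0.63 for Necab1. These values describe 6 libraries in 2 groups, so any difference between the genotypes enters them, and 5.37% of all features tested had an r as high as that of Epha7.

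**Figure D2:**
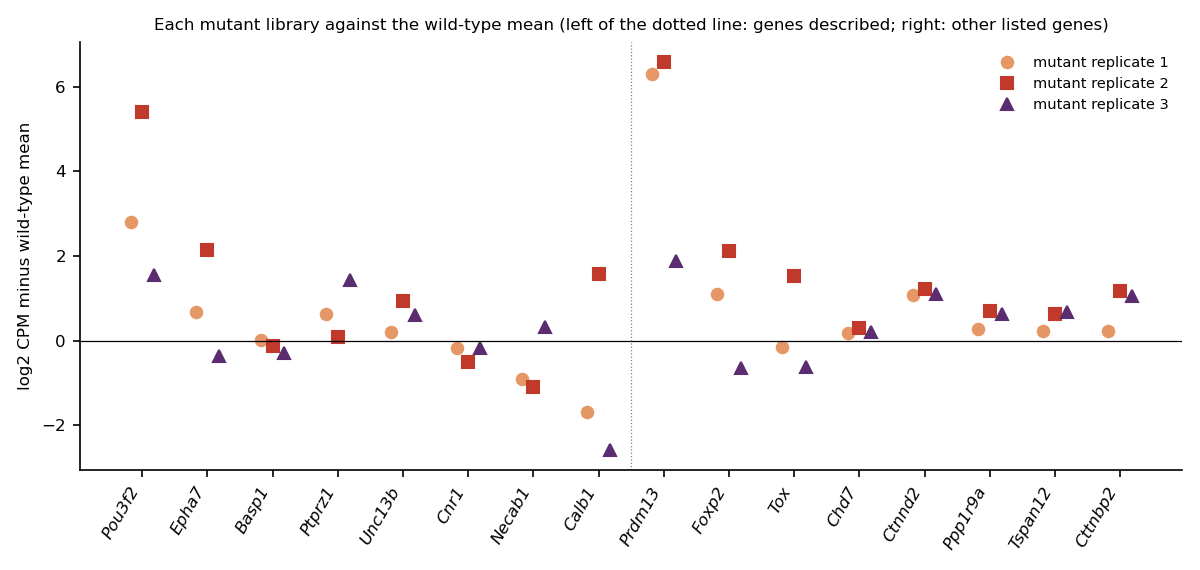
Difference of log2 CPM (prior count 2) between each mutant library and the wild-type mean, for the 8 tested genes on the left and 8 other listed neural genes on the right. Pou3f2, Epha7, Calb1, Foxp2 and Tox have mutant replicate 2 well above the other mutant libraries, while Ctnnd2 has all 3 close together.

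**Figure D3:**
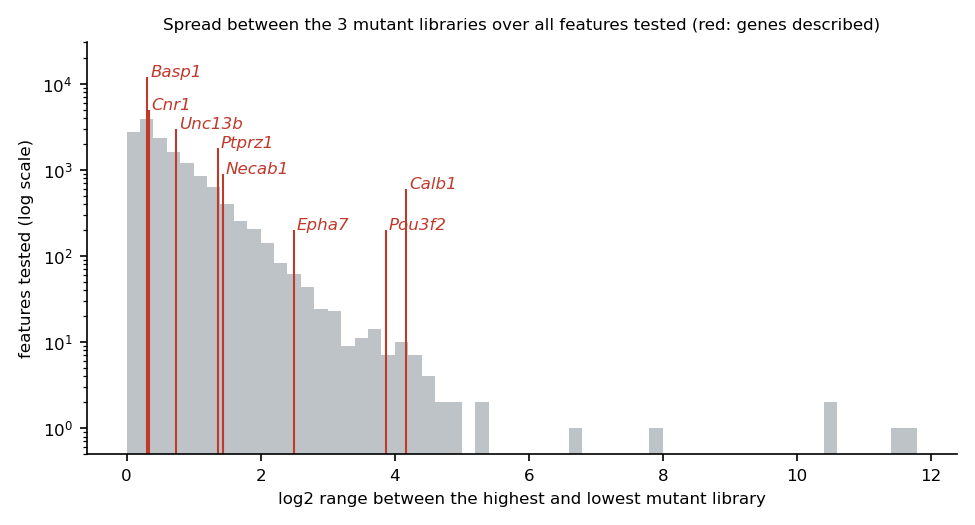
Number of features tested (log axis) by the log2 range between their highest and lowest mutant library, in bins of 0.2, with red lines at the 8 tested genes. Basp1 and Cnr1 lie at 0.31 and 0.33, Epha7 at 2.50, Pou3f2 at 3.87 and Calb1 at 4.17.

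The 5 coding genes on the stretches whose log2 CPM was most like that of Pou3f2 over the 6 libraries were Cav1, Bach2, Xpa, Clvs1 and Fam71f2, with r from 0.98 to 0.99. None of these 5 was on the neural list, which does not hold every gene with a role in neurons. Their absence from it therefore does not show that they lack such a role. Cav1, which shapes caveolae at the cell surface, ranged from 7.96 to 14.1 CPM in the wild-type libraries, against 59.9, 185 and 19.8 CPM in mutant replicates 1 to 3, the order of Pou3f2. Bach2, a transcriptional repressor, stood at 74.6, 77.1 and 62.2 CPM in the wild-type libraries, against 129, 171 and 92.7 CPM in the mutants. Xpa, a DNA repair protein, kept the same order within a narrow range, from 42.7 to 45.0 CPM in wild type and from 50.3 to 60.1 CPM in the mutants. Clvs1 had 8, 12 and 4 counts in the wild-type libraries, against 34, 76 and 21 in mutant replicates 1 to 3. Its log2 fold change was 2.68, a description of a gene picked for its likeness to Pou3f2.

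A wider list of 50 neural genes describes how others of the members' kind behaved. The list was chosen with earlier results of these data known, so its shares beside those of all features are a description and not a test. Of the 50 genes, 45 lay on the stretches and 38 had enough counts to be tested. In the mutant 5 of the 38 rose, namely Pou3f2, Prdm13, Ctnnd2, Tspan12 and Ppp1r9a, and 0 fell (edgeR), against 4.25% and 3.67% of all features and 9.01% and 4.32% of the 555 tested on the stretches. At an unadjusted p below 0.05, 13 were higher and 3 lower in edgeR. Of the 555 tested features on the stretches 128 and 68 were, and of all 14550 features 1902 and 1826. DESeq2's Wald test had 8 calls higher and 0 lower on the list. Over all features it called 941 higher and 767 lower, where the main fit called 618 and 534. Pou3f2 is counted here although it was chosen for its rise, so its call is not a test. That call was lost with a term for embryo sex (edgeR adjusted p = 0.0891) and in limma-voom (adjusted p = 0.133). It was also lost without any 1 wild-type library and without mutant replicate 1. Among the 30 tested genes outside the 10 members, 4 rose, or 13.3%, and 0 fell. Of these 30, 20, or 66.7%, were highest in mutant replicate 2 among the mutants. With a term for embryo sex 1 of the 38, Ctnnd2, rose. The median log2 fold change of the 38 was 0.31, against 0.09 on the stretches and -0.01 over all features. Mutant replicate 2 was the highest mutant library for 24 of the 38, or 63.2%, against 47.2% of the tested features on the stretches. It lay above all wild-type libraries for 24 of the 38, and mutant replicates 1 and 3 for 18 each, or 47.4%. Over the tested features on the stretches these shares were 50.6%, 43.2% and 39.8% for mutant replicates 2, 1 and 3. The number of listed genes that rose depended on single libraries, as did the number over all features. It ran from 1, without wild-type replicate 2 or without wild-type replicate 3, to 6, without mutant replicate 3. It was 2 without wild-type replicate 1. Without mutant replicate 2 it was also 2, and 3 fell. Over all features, 618 rose with all libraries, and 408, 66 and 163 without wild-type replicates 1, 2 and 3. Without mutant replicate 3 it was 782, and without mutant replicate 2 516, while 393 fell.

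Among the 6 listed transcription factors tested besides Pou3f2, 1 rose and 0 fell, against 9.01% and 4.32% on the stretches. All 6 were highest in mutant replicate 2 among the mutants, as were 47.2% of the tested features on the stretches. The lead was small in Chd7 (850, 917 and 862 CPM in mutant replicates 1 to 3) and in Pax4, with 8, 11 and 15 counts. Pax5 in mutant replicate 2 stood at 3.20 CPM, below its wild-type mean of 3.75 CPM. Fezf1 had too few counts to be tested, with 7, 21 and 1 counts in wild type and 0, 0 and 1 in the mutants. Prdm13, a factor that sets inhibitory neuron fate in the dorsal neural tube, had the largest rise of the list. It stood at 1.64, 0.0368 and 0.214 CPM in the wild-type libraries, against 31.1, 38.1 and 1.37 CPM in mutant replicates 1 to 3. Mutant replicates 1 and 2 were high, and mutant replicate 3 lay within the wild-type range, so the groups overlap. Its log2 fold change was 5.14 ± 1.27 (SE, edgeR adjusted p = 0.0457). The call was lost without any 1 library other than mutant replicate 3, with adjusted p from 0.0515 to 0.169 (edgeR) and log2 fold changes from 4.56 to 7.67.

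The other factors moved less. Foxp2, a forkhead factor of developing neurons, stood at 24.1, 17.9 and 16.1 CPM in the wild-type libraries, against 41.4, 82.5 and 12.1 CPM in mutant replicates 1 to 3. As with Epha7, mutant replicate 3 lay below all wild-type libraries. The log2 fold change was 1.22 ± 0.55 (SE, edgeR adjusted p = 0.209), 0.47 without mutant replicate 2, and 1.69 without mutant replicate 3, where it passed (edgeR adjusted p = 0.0145). Tox, a high-mobility-group factor, stood at 5.06 to 9.08 CPM in the wild-type libraries, against 6.31, 20.3 and 4.49 CPM in mutant replicates 1 to 3. Its log2 fold change of 0.51 turned to -0.40 without mutant replicate 2, and neither passed. Chd7, a chromatin remodeler needed in neural crest and neural progenitors, stood at 686 to 793 CPM in wild type and 850.4 to 917 CPM in the mutants, without overlap (log2 fold change 0.23 ± 0.08 SE, edgeR adjusted p = 0.113).

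Of the listed progenitor and glial membrane genes, 1 of 4 tested rose, where 9.01% of the tested features on the stretches did. That was Tspan12, a tetraspanin best known as a partner of Norrin and Frizzled signaling in retinal vessels, not in neural progenitors. It rose from 103 ± 4.5 to 148 ± 24.0 CPM (SD, n = 3 per group), with a log2 fold change of 0.53 ± 0.12 (SE, edgeR adjusted p = 0.0401). The call was lost without any 1 library other than mutant replicate 1 (adjusted p from 0.0670 to 0.133 by edgeR). Fut9, which makes the Lewis X epitope of neural stem cells, had a log2 fold change of -0.21 and the receptor Gpr37 of -0.07, neither past the threshold.

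Of the listed axon genes, 1 of 9 tested rose and 0 fell, a share near the 9.01% that rose on the stretches. Ctnnd2, which encodes delta-catenin of dendrites and adherens junctions, stood at 24.1, 26.5 and 21.5 CPM in the wild-type libraries, against 50.4, 55.7 and 51.6 CPM in mutant replicates 1 to 3. Its mutant libraries were close together, unlike those of Pou3f2. The log2 fold change was 1.13 ± 0.11 (SE, edgeR adjusted p = 0.00389), and it passed in all 13 alternative fits. Of these, the fit with library sizes without mitochondrial and erythroid features nearly repeats the main fit. Ctnnd2, Trio and Myo10 lie on the stretch of chromosome 15 that dropped out with a detection minimum of 20 CPM. Trio, which acts in axon guidance, and Myo10, a filopodial myosin, had log2 fold changes of 0.10 ± 0.09 and -0.07 ± 0.12 (SE).

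Of the listed synaptic genes, 1 of 18 tested rose and 0 fell, a share no higher than the 9.01% on the stretches. Ppp1r9a, which encodes neurabin, an actin-binding scaffold of dendritic spines, stood at 159, 143 and 125 CPM in the wild-type libraries, against 173, 229 and 218 CPM in mutant replicates 1 to 3. All mutant libraries lay above all wild-type libraries, with a log2 fold change of 0.54 ± 0.13 (SE, edgeR adjusted p = 0.0452). The call was lost without wild-type replicate 2 or 3, or without mutant replicate 2 or 3 (adjusted p from 0.0723 to 0.163 by edgeR). Tmeff1, a transmembrane protein with follistatin-like domains, was higher in every mutant library, at 564 to 585 CPM against 491 to 541 CPM, but did not pass (log2 fold change 0.16 ± 0.07 SE, edgeR adjusted p = 0.204). Cttnbp2, a cortactin partner in dendritic spines, had a log2 fold change of 0.84 ± 0.27 (SE, edgeR adjusted p = 0.101), and passed without mutant replicate 1, at 1.09 (edgeR adjusted p = 0.0456).

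**Figure D4:**
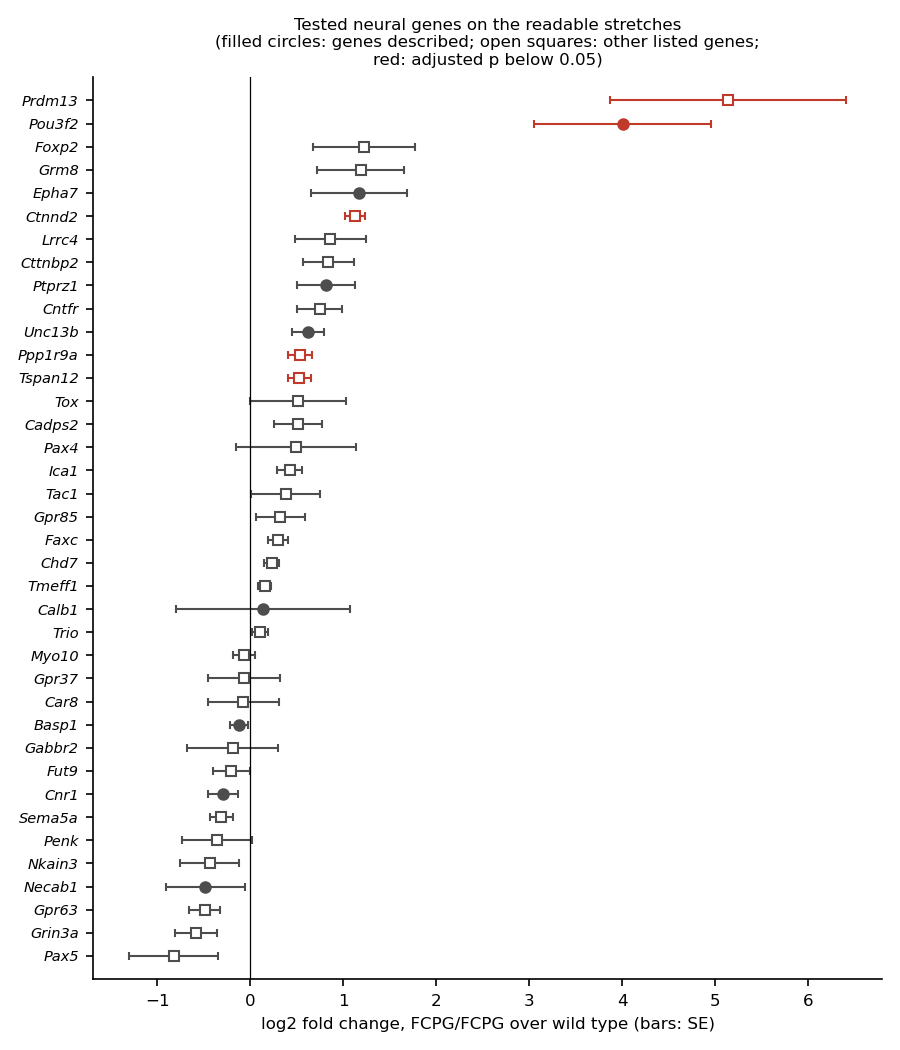
Log2 fold change with its SE, mutant over wild type, for the 38 tested neural genes on the stretches, with filled circles for the 8 tested genes described one by one, open squares for the other listed genes and red for an adjusted p below 0.05 (edgeR). Prdm13 and Pou3f2 lie at 5.14 and 4.01, and all other listed genes between -0.83 and 1.22. Pou3f2 was chosen for its rise.

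Among the mutants, the listed mesenchymal and matrix markers were highest in the same library as Pou3f2, as was the erythroid sum. Limb and craniofacial mesenchyme markers summed lowest there. Of 8 mesenchymal and matrix markers on the stretches, 8 were highest in mutant replicate 2 among the mutants and 4 rose (Col1a2, Cav1, Runx1t1 and Reck). Of the tested features on the stretches 47.2% and 9.01% did so, and of all features tested 38.1% and 4.25%. Their summed level was 546 to 556 CPM in wild type and 929, 1982 and 1060.0 CPM in mutant replicates 1 to 3. Mutant replicate 2 thus had the highest sum, as it had the highest Pou3f2, Epha7 and Foxp2. Much of the sum was Col1a2, at 282, 923 and 573 CPM in mutant replicates 1 to 3. Mutant replicate 2 was little above mutant replicate 1 in Reck (250 against 237 CPM) and Tes (220 against 209 CPM). Npr3 and Adamts12 lie on the stretch of chromosome 15 that dropped out with a detection minimum of 20 CPM. The 4 erythroid markers summed to 127 to 200 CPM in wild type and to 53.3, 56.2 and 41.3 CPM in mutant replicates 1 to 3. Hemgn and Tspan33 were lower. Of the 4, 3 were highest in mutant replicate 2 among the mutants, 1 of these being Bpgm, at or near 0 in every library. Markers of limb and craniofacial mesenchyme, 3 of 4 on the stretches, summed to 84.0 to 127 CPM in wild type. In the mutants they summed to 59.5 to 85.6 CPM, lowest in mutant replicate 2, and Dlx6 fell. Dlx5 and Dlx6 were each lowest in mutant replicate 2. Gdf6 was highest there, at 9.42, 19.1 and 17.3 CPM in mutant replicates 1 to 3. The 5 genes listed as epithelial markers summed to 221 to 267 CPM and 192 to 229 CPM, also lowest in mutant replicate 2. Of these 5, 2 were highest in that library among the mutants, Met (91.9 CPM) and Cdh17, which was near 0. Esrp1 was lowest there, at 71.3 CPM. Within that list Cftr rose. Wnt2, whose place on it as an epithelial marker is unsure, was higher in every mutant library, at a mean of 28.3 CPM against 2.91 CPM, without passing. The part of these cell types in the neural values was not tested.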

How the data were processed

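Stranded mRNA libraries were made from 6 tailbud samples, per the labels. Tools named in the submitters' processing notes are featureCounts, Bowtie, DESeq and DESeq2, with build mm39, while versions, annotation release and strand setting are not given in the sources used here. Every test started from the deposited raw counts, 1 row per Ensembl ID. Their DESeq2 table holds, per the file headers, a mean normalized signal, log2 fold changes with standard errors, the Wald score, and p-values with adjusted p-values. It was used for comparison only. Columns were matched by genotype letter and replicate number.

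IDs were cut to 18 characters, which left no duplicates, and 52029 of 56953 matched a symbol. Gene order and exon lengths came from GENCODE M21, an older build. A hidden Markov model over 919 ubiquitous genes, detected at 10 CPM, gave the stretches: chance of detection 0.95 or 0.25, chance of change 0.03, runs of at least 6 genes with a posterior above 0.95.

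Libraries were compared with edgeR 4.0.16 in R 4.3.3 (quasi-likelihood F test, filterByExpr, TMM, no covariate), with Benjamini-Hochberg adjustment over 14550 features. SE is the log2 fold change divided by the square root of F. Alternatives used DESeq2 1.42.0, limma 3.58.1, other filters and scalings, a replicate block, a sex term and each library left out. The method was tested on simulated data. Named genes are the 10 members, called neural-list genes, the 3 most abundant uncalled genes of each listed group, and the 5 genes most like Pou3f2 (log2 CPM, prior count 2). Members and lists were chosen with earlier results of these data known. Intervals from a count of 0 cover counting error only.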

Additional observations from a re-analysis of the deposited data

How the results depend on the processing

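Over all features, 618 were higher and 534 lower. The DESeq2 Wald test gave 941 higher, no low-count filter 1352 and 1145, and the sex term 273 and 264. Without 1 library the counts ran from 66 to 782 higher and 63 to 565 lower. Of the members, 1 was called higher, namely Pou3f2, which was chosen for its rise, and 0 lower. The DESeq2 Wald test called 2 higher, limma-voom 0, no low-count filter 4 and the sex term 0, and without 1 library 0 to 2 were higher and 0 to 1 lower. Of the neural list, 5 were higher and 0 lower. The DESeq2 Wald test gave 8 higher, limma-voom 3, no low-count filter 14 higher and 1 lower, and the sex term 1 higher. Without 1 library 1 to 6 were higher and 0 to 3 lower. With a detection minimum of 20 CPM, 4 were higher. The cause was not tested, except that fits without 1 library hold fewer libraries.

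The log2 fold change of Calb1, 0.13, became -1.26 with limma-voom, -0.73 with the replicate block, -0.37 with the sex term and, without 1 library, ran from -2.32 (without mutant replicate 2) to 0.70. Without 1 library, that of Tox ran from -0.40 (without mutant replicate 2) to 0.89, that of Myo10 from -0.20 to 0.0298 (without mutant replicate 3), and that of Gpr37 from -0.41 to 0.15, positive without wild-type replicate 2, mutant replicate 1 or mutant replicate 3. The other named genes that could be tested kept their sign. Plxna4 and Nxph1 were not tested. Deviations of libraries with the same number were not shared (correlations -0.23, -0.01 and -0.01). The values thus gave no sign of pairing by number, but litter and preparation are not given, so pairing remains unknown. The replicate block left 433 features higher and 411 lower. With it 1 member and 4 listed genes were higher, and Tspan12 and Ppp1r9a lost their calls (adjusted p = 0.0517 and 0.0764 by edgeR). DESeq2 size factors moved no count by more than 1.5 times. Library sizes without mitochondrial and erythroid features gave 618 and 534 again. TMM scaling after them restores nearly the same scale, so that fit is not a separate check. Genes under a few CPM, such as Calb1, Prdm13 in wild type and Nxph1, are limited by depth.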
